A study of Mus musculus with 16 samples.

Results

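Meltf, Cp, Trf, Slc40a1, Slc11a2, Fth1 and Ftl1 are 7 genes of iron handling among the 19505 genes that the arrays measured by symbol, each by a single probe set. Meltf and Cp were taken because both fell after Sox9 deletion in both compartments of the disc. Trf, Slc40a1, Slc11a2, Fth1 and Ftl1 were taken as the other genes of the same pathway. The falls of Meltf and Cp are therefore given as descriptions with no test, while their levels in nucleus pulposus against annulus fibrosus, and all values of the other 5 genes, are tested.

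The arrays hold RNA from the intervertebral discs of 8 female mice aged 3 to 4 months. The nucleus pulposus (NP) is the soft core of the disc and the annulus fibrosus (AF) is the fibrous ring around it. The 4 control mice (Sox9CTR) were Sox9fl/fl, so their Sox9 alleles carry loxP sites but were left intact. The 4 knockout mice (Sox9cKO) were AcanCreERT2Sox9fl/fl and received tamoxifen on 2 consecutive days, and discs were collected 5 days from the first of these. The recombinase is driven by Acan, the aggrecan gene, so the deletion reaches only cells that use that gene. The labels name the injection for the knockouts only, so the effects of Cre, of tamoxifen and of Sox9 loss cannot be told apart. NP and AF from lumbar and tail discs were each pooled within an animal and hybridised to 1 array, which gives 4 groups of 4 arrays, CTR and cKO for each of NP and AF. Each array of a group is a separate animal, and the NP and AF arrays of the same number and genotype come from 1 animal.

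Iron travels in blood bound to transferrin, the product of Trf, and enters cells when the transferrin receptor is taken up into endosomes, from which the divalent metal transporter encoded by Slc11a2 moves it to the cytosol. Iron not needed at once is stored inside ferritin shells built of heavy (Fth1) and light (Ftl1) chains, and it leaves the cell through ferroportin, the product of Slc40a1. Ceruloplasmin, the copper enzyme encoded by Cp, oxidises the exported iron so that transferrin can bind it. Melanotransferrin, encoded by Meltf, is a transferrin relative held at the cell surface by a lipid anchor, and it is known from melanoma and from cartilage.

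Values are log2 signals, so a difference of 1 is a doubling. Across the 16 arrays the median probe set lay between 6.66 and 6.89, and 5222 negative control probe sets had medians from 6.14 to 6.59. A group mean under 6.59 is called below background here, and a fold against it is given as at least that against 6.59. Arrays of a group correlated at 0.963 to 0.983 over all probe sets, and NP with AF arrays at 0.891 to 0.957. Sox9, the deleted gene, read 15.95 to 16.79 in NP CTR and 9.55 to 10.12 in NP cKO, and 16.39 to 17.45 in AF CTR and 11.43 to 12.99 in AF cKO. It fell by 6.51 (SE 0.30, 91.4-fold, adjusted p = 3.11e-10) in NP, and in AF it fell by 4.68 (SE 0.30, 25.7-fold, adjusted p = 1.05e-07), as the labels require. Whether its probes lie in the deleted part of the gene is not stated in the labels. NP arrays had a higher mean of the notochordal list (13.5 to 14.0 over 7 genes, against 12.3 to 13.2 in AF). In controls that gap came from Krt8, Krt18, Krt19 and Cd24a, which were above background in AF too. Shh read 7.33 in NP CTR against 7.58 in AF CTR, and 7.48 in NP cKO against 6.93 in AF cKO. Car3 lay near the highest value of the arrays in all 4 groups, and Foxa2 was below background in all 4 groups. AF arrays showed the annulus and tendon list (12.6 to 14.0 over 8 genes, against 8.07 to 9.95 in NP, where Tnmd, Scx and Mkx were below background). Among the AF arrays, cKO 2 and cKO 4 carried skeletal muscle markers (mean 11.1 and 10.4, against 6.52 to 7.54 in the other 6), and CTR 1 and cKO 3 carried the highest osteoclast markers (9.18 and 10.3, against 5.63 to 7.62). Results of the 7 genes that rest on these arrays are given with and without them, as are the counts over the lists of other iron genes.

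The starts of Meltf and Cp are shown because these are the 2 members that fell, and SOX9 is a DNA-binding factor of the SRY family whose members recognise the letters ACAAAG and ACAATG. Meltf lies on the plus strand of chromosome 16 from 31878629 to 31899020 and Cp on the plus strand of chromosome 3 from 19956933 to 20009750, in RefSeq's annotation of GRCm38.p6. The other members lie on chromosome 9 (Trf, 103208876 to 103230286), chromosome 1 (Slc40a1, 45908070 to 45926532), chromosome 15 (Slc11a2, 100387898 to 100424209), chromosome 19 (Fth1, 9980600 to 9985111) and chromosome 7 (Ftl1, 45457944 to 45459886). The array measures Meltf by probe set TC1600000421.mm.2 and Cp by TC0300000137.mm.2. RefSeq promoter windows of 300 bases were matched for 4 of the 7 genes, Meltf, Cp, Fth1 and Ftl1. The stretches below are the parts of those windows that lie before the annotated gene, 69 bases for Meltf and 129 for Cp, 5′ to 3′ on the plus strand. Capitals mark a match to either motif.
Meltf, chr16:31878560-31878628: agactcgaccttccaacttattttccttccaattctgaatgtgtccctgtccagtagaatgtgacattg
Cp, chr3:19956804-19956932: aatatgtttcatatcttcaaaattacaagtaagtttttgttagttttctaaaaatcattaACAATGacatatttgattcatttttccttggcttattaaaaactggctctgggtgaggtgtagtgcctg
Both motifs were searched on both strands of each whole window, and no matches overlapped. The window of Meltf held 0 matches and the first window of Cp held 3, of which 1 is in the stretch above and the other 2 are shown here as sites of 30 bases.
Cp, chr3:19956935-19956964: attgctagaagaACAAAGggagcatttaga
Cp, chr3:19957046-19957075: cagatgacattcCTTTGTagttagagaagc
The last site reads ACAAAG on the opposite strand and also lies in the second window of Cp, where it was the 1 match. Fth1 had 1 match in its first window and 0 in its second, and Ftl1 had 0. Of all 32851 mouse windows of the same length, 18.7% held ACAAAG, 12.6% held ACAATG, 28.6% held either and 0.767% held 3 or more matches. A match to these letters is a description of the sequence, and no binding of SOX9 was measured here.

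Meltf was high in control discs and low after Sox9 deletion in both compartments. In NP CTR the 4 arrays read 11.93, 12.81, 13.24 and 11.30, and in NP cKO 9.02, 10.24, 9.30 and 8.95. In AF CTR they read 13.97, 14.17, 13.77 and 13.96, and in AF cKO 10.03, 11.89, 10.32 and 9.85. The control and knockout arrays did not overlap in either compartment, and every knockout array stayed above the background of 6.59. The means fell by 2.94 (SE 0.43) in NP, a 7.69-fold lower signal, and in AF they fell by 3.45 (SE 0.43), a 10.9-fold lower one. Knockout signal was thus 13.0% of control in NP and 9.18% in AF. Ranked by size among all 22206 probe sets tested, the fall of Meltf stood at place 6 in NP and 5 in AF. Because RNA was taken from whole tissue, fewer cells that make Meltf and less Meltf RNA per cell cannot be told apart.

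Over all probe sets, 0.122% passed an adjusted p under 0.05 in NP, 27 lower and 0 higher in cKO, and 0.0991% passed in AF, 19 lower (0.0856%) and 3 higher (0.0135%). Groups of 4 that did not overlap made up 2.93% of probe sets in NP (1.82% lower and 1.11% higher in cKO) and 4.33% in AF (2.54% lower and 1.79% higher). Probe sets lower in cKO without overlap in both compartments numbered 41, or 0.185%, and those that passed as lower in both numbered 7, or 0.0315%. Those shares describe the setting in which Meltf and Cp were picked, and nothing further is read from their own place in it.

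The order of the Meltf group means was AF CTR (13.97 ± 0.16, SD, n = 4), NP CTR (12.32 ± 0.87), AF cKO (10.52 ± 0.93) and NP cKO (9.38 ± 0.60). Only AF CTR stood apart from its neighbour in that order, while the ranges of NP CTR and AF cKO, and of AF cKO and NP cKO, overlapped. The AF controls lay close together, between 13.77 and 14.17, and the NP controls were spread from 11.30 to 13.24. Markers of chondrocyte-like cells also differed between the groups, in another order: the mean of 8 such genes was 11.7 to 14.9 in AF CTR, 10.4 to 11.8 in AF cKO, 8.45 to 8.76 in NP CTR and 7.62 to 8.58 in NP cKO. The list was thus higher in AF cKO than in NP CTR, where Meltf had the lower mean in AF cKO. In NP, Col9a1, Matn3 and Ucma of that list were below background in both genotypes. The list is no count of such cells, because its genes themselves were lower in AF cKO than in AF CTR, all but Comp (16.33 against 16.28). Acan read 17.12 in AF cKO against 19.13 in AF CTR, Col2a1 11.41 against 14.13, and Ucma 9.35 against 12.83. The part of such cells in the levels of Meltf was not tested.

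**Figure D1:**
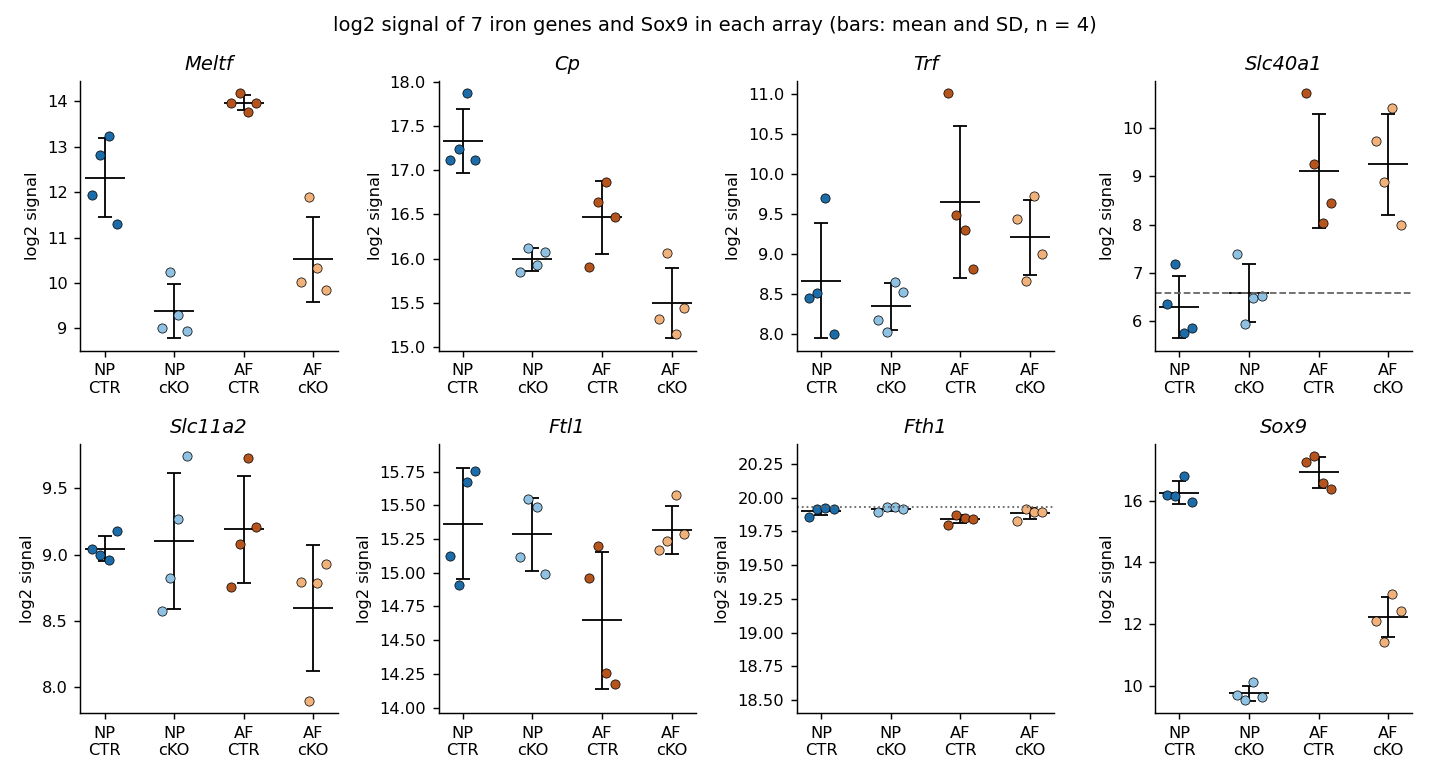
The log2 signal (vertical axis, with its own scale in each panel) of the 7 iron genes and Sox9 is plotted for each array of the 4 groups, with bars for the mean and SD of 4 arrays, a dashed line at the background of 6.59 for Slc40a1 and a dotted line at the highest value of the table for Fth1. The knockout points of Meltf lie below all control points of the same compartment, Slc40a1 lies near background in NP and above it in AF, and Fth1 is flat at the top of the scale.

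Levels of Meltf in NP against AF were not used to pick the gene and were tested. In control mice it was lower in NP than in AF by 1.65 (SE 0.43, 3.14-fold, limma adjusted p = 0.0104), and all 4 NP values lay under all 4 AF values. The direction and the call held under each of the 18 alternatives run for it, with differences from -1.96 to -1.31 and adjusted p from 0.00199 to 0.0441. In knockout mice the difference was 1.15 in the same direction (SE 0.43, adjusted p = 0.0556), which did not pass, and the groups overlapped. It passed with the animal as a block, at an adjusted p of 0.0485 with a random and 0.0141 with a fixed block, and leaving out AF cKO 2 and AF cKO 4 brought it to -0.80 (adjusted p = 0.225).

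Among the other members, Trf, the plasma iron carrier and a relative of Meltf, had means of 9.65 ± 0.95 in AF CTR, 9.21 ± 0.47 in AF cKO, 8.66 ± 0.72 in NP CTR and 8.34 ± 0.30 in NP cKO (SD, n = 4). Neighbours in that order overlapped throughout. The control arrays read 8.45, 8.51, 9.69 and 8.0 in NP and 11.01, 9.48, 9.30 and 8.81 in AF. The knockout arrays read 8.17, 8.02, 8.65 and 8.53 in NP and 9.43, 8.66, 9.73 and 9.0 in AF. Control and knockout values were mixed in both compartments. The changes of -0.32 (SE 0.40, adjusted p = 1) in NP and -0.44 (SE 0.40, adjusted p = 0.719) in AF did not pass. Their 95% intervals ran from -1.16 to 0.52 and from -1.28 to 0.40, so a shift of Trf of up to about 1 log2 unit is within what these arrays allow. AF CTR 1 had the highest Trf (11.01). Among AF controls that array also had the highest means of the osteoclast, neutrophil, chondrocyte-like, endothelial, glial, erythroid and macrophage markers. Without it the AF change of Trf was 0.01.

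Trf was 0.98 lower in NP than in AF in controls (SE 0.40, adjusted p = 0.0923) and 0.86 lower in knockouts (SE 0.40, adjusted p = 0.118), where the groups did not overlap by a narrow margin, 8.65 against 8.66. Neither difference passed. The control difference passed without NP CTR 3 (-1.33, adjusted p = 0.0235) or without AF CTR 4 (-1.26, adjusted p = 0.0391), and it was -0.53 without AF CTR 1 (adjusted p = 0.319).

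Cp was bright in every array and was lower in cKO in both compartments, by less than Meltf. NP CTR read 17.11, 17.23, 17.87 and 17.11, and NP cKO read 15.84, 16.11, 15.93 and 16.07. AF CTR read 15.90, 16.64, 16.86 and 16.47, and AF cKO read 15.32, 16.06, 15.15 and 15.45. In NP the genotypes were fully separated, whereas in AF the lowest control, CTR 1 at 15.90, lay under the highest knockout, cKO 2 at 16.06. The mean fell by 1.34 (SE 0.24, 2.53-fold) in NP, and in AF it fell by 0.97 (SE 0.24, 1.96-fold). Signal in cKO was 39.5% of control in NP and 50.9% in AF. By size, the fall of Cp stood at place 53 in NP and 179 in AF. Over all alternatives its log2 change ran from -1.42 to -1.16 in NP and from -1.23 to -0.84 in AF, and that of Meltf from -3.28 to -2.64 and from -3.90 to -3.22.

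Group means of Cp ran in the order NP CTR (17.33 ± 0.36), AF CTR (16.47 ± 0.41), NP cKO (15.99 ± 0.13) and AF cKO (15.49 ± 0.40), each SD with n = 4. NP CTR stood clear of AF CTR, and the other neighbours overlapped. In controls Cp was higher in NP than in AF by 0.86 (SE 0.24, 1.82-fold, adjusted p = 0.0169), the opposite direction to Meltf. That call was lost without NP CTR 3 (0.69, adjusted p = 0.0589), without AF CTR 1 (0.68, adjusted p = 0.0669), without AF CTR 1 and AF cKO 3 together (0.68, adjusted p = 0.0634) and with a second quantile normalization (0.55, adjusted p = 0.0949). In knockouts the difference was 0.50 (SE 0.24, adjusted p = 0.139) and did not pass.

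The fall of Meltf was 0.50 smaller in NP than in AF (SE 0.61), and the fall of Cp was 0.37 larger in NP (SE 0.34). Both differences of the changes are close to or below their SE and come from the values that picked the genes, so they carry no test. Over all probe sets, 0 passed an adjusted p under 0.05 for the difference of the changes by limma and 1496 had an unadjusted p under 0.05. The thresholds that the labels name, an unadjusted p under 0.05 with a fold of at least 1.75, gave 977.

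Animals were followed across the compartments because each gave both tissues. Mouse M2 had the highest Meltf of the 4 knockouts in NP (10.24) and in AF (11.89), and also the highest Cp in NP (16.11) and AF (16.06). Its Sox9 was the lowest of the knockouts in both, 9.55 in NP and 11.43 in AF. AF cKO 2, from that mouse, is 1 of the 2 arrays with skeletal muscle markers, while the other, AF cKO 4, had the lowest Meltf of its group (9.85). Without both, the AF change was -3.79 for Meltf and -1.23 for Cp. Among controls, mouse C3 had the highest Cp in NP (17.87) and in AF (16.86), and also the highest Meltf in NP (13.24) but the lowest in AF (13.77).

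**Figure D2:**
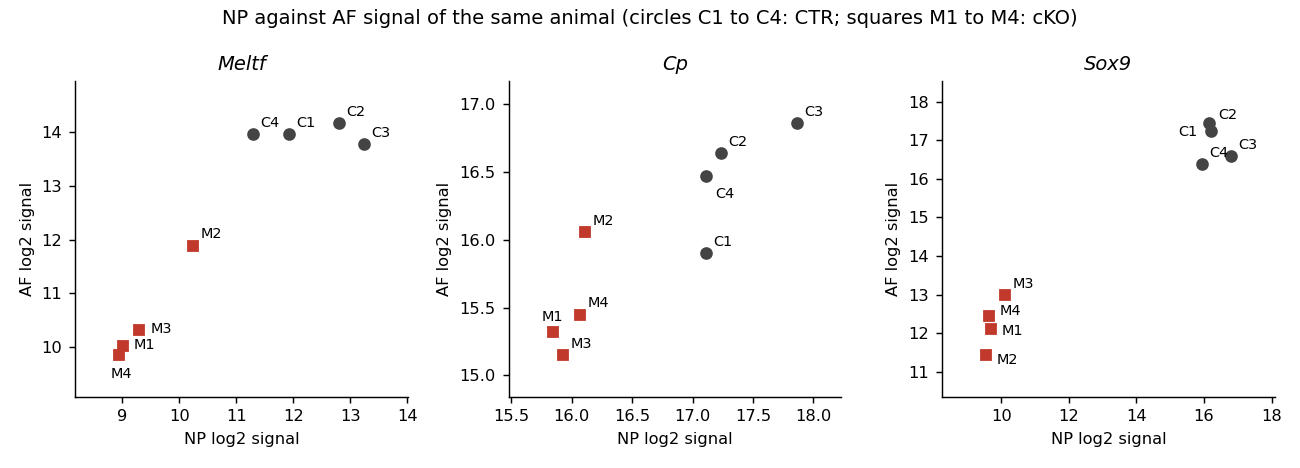
NP log2 signal (horizontal axis) is plotted against AF log2 signal (vertical axis) for Meltf, Cp and Sox9, with 1 point for each of 8 animals, circles C1 to C4 for controls and squares M1 to M4 for knockouts. M2 is the highest knockout for Meltf and Cp and the lowest for Sox9 in both tissues.

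Slc40a1, the iron exporter with which ceruloplasmin works, had group means above background in AF but not in NP. NP CTR read 6.36, 7.18, 5.75 and 5.86 and NP cKO 7.39, 5.95, 6.48 and 6.52, with both means below background. AF CTR read 10.72, 9.25, 8.02 and 8.45 and AF cKO 9.73, 8.89, 10.41 and 7.99, so every AF array was above every NP array. Group means were 9.25 ± 1.05 in AF cKO, 9.11 ± 1.19 in AF CTR, 6.59 ± 0.60 in NP cKO and 6.29 ± 0.65 in NP CTR (SD, n = 4), and only the step from AF to NP had no overlap. In controls it was at least 5.75-fold higher in AF than in NP (log2 difference -2.83, SE 0.54, adjusted p = 0.000961), and in knockouts at least 6.34-fold (log2 difference -2.67, SE 0.54, adjusted p = 0.00155). Both calls held under every alternative run for them. The genotype made no difference that passed: 0.30 (SE 0.54, adjusted p = 1) in NP, where both means are below background, and 0.14 (SE 0.54, adjusted p = 0.949, 95% interval -0.98 to 1.26) in AF. The AF change depended on single arrays, from -0.25 to 0.95 over the alternatives, lowest without AF cKO 3 and highest without AF cKO 2 and AF cKO 4, and it was 0.68 without AF CTR 1.

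Within each genotype of AF, the order of the arrays by Slc40a1 was also that of several marker lists, so the order alone cannot single out a cell type. Slc40a1 ran CTR 1, CTR 2, CTR 4, CTR 3 from high to low among controls and cKO 3, cKO 1, cKO 2, cKO 4 among knockouts. The mean of 8 osteoclast markers had the same order, with 9.18, 7.62, 7.36 and 5.63 in controls and 10.3, 7.59, 7.29 and 6.09 in knockouts, as did the mean of 9 neutrophil markers, with 12.4, 8.40, 7.58 and 6.59 and with 14.2, 12.85, 12.82 and 10.3. The mean of 8 chondrocyte-like markers had that order too, with 14.9, 13.7, 12.4 and 11.7 in controls and 11.8, 11.2, 10.9 and 10.4 in knockouts. Between genotypes none of these orders held. For neutrophil markers, AF cKO 4 had 10.3 with Slc40a1 at 7.99, and AF CTR 2 had 8.40 with 9.25. For osteoclast markers, AF cKO 3 had 10.3 with Slc40a1 at 10.41, and AF CTR 1 had 9.18 with 10.72. For chondrocyte-like markers, AF CTR 3 had 11.7 with Slc40a1 at 8.02, and AF cKO 1 had 11.2 with 9.73. In NP, 7 of the 8 osteoclast markers were below background in both genotypes, and their mean was 5.10 to 5.66. In AF, Ocstamp, Dcstamp, Calcr and Oscar of that list were below background in both genotypes. Endothelial markers (7 genes) averaged 6.35 to 7.96 in AF and 5.13 to 5.47 in NP. Among knockouts the endothelial, macrophage, erythroid and annulus lists also ran cKO 3, cKO 1, cKO 2, cKO 4. Among controls none of these lists had the order of Slc40a1. Of 9 macrophage markers, a cell type known for high ferroportin, Adgre1, C1qa, C1qb, Marco, Vsig4 and Timd4 were below background in all 4 groups, and the list averaged 5.95 to 6.72 over all arrays. The other 3 were Csf1r, with means of 9.51 in NP CTR, 9.59 in NP cKO, 9.27 in AF CTR and 10.04 in AF cKO, Mrc1, with 7.17, 6.83, 8.51 and 8.36 in that order, and Cd163, which was below background in AF. Mrc1 was thus higher in AF than in NP, as Slc40a1 was. Without the arrays of highest osteoclast markers, AF CTR 1 and AF cKO 3, the NP minus AF difference of Slc40a1 was -2.29 in controls (adjusted p = 0.00138) and -2.28 in knockouts (adjusted p = 0.00158). The part of each cell type in the remaining difference was not tested.

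**Figure D3:**
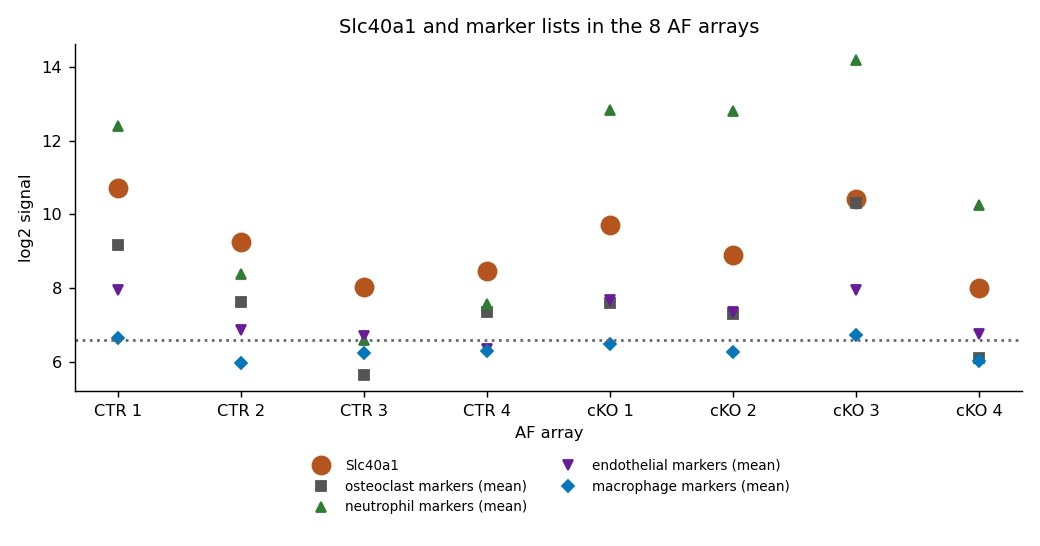
The log2 signal (vertical axis) of Slc40a1 and the mean log2 signal of the osteoclast, neutrophil, endothelial and macrophage marker lists are plotted for each of the 8 AF arrays (horizontal axis), with a dotted line at the background of 6.59. Slc40a1 and each of the marker lists are highest in CTR 1 among controls and in cKO 3 among knockouts, and the macrophage list lies near background in all 8.

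Slc11a2, which carries iron out of the endosome, varied little between the groups. NP CTR read 9.04, 9.0, 8.96 and 9.18, NP cKO 8.58, 8.83, 9.27 and 9.75, AF CTR 8.76, 9.08, 9.73 and 9.21, and AF cKO 8.79, 7.89, 8.78 and 8.93. Means were 9.19 ± 0.40 in AF CTR, 9.10 ± 0.51 in NP cKO, 9.04 ± 0.10 in NP CTR and 8.60 ± 0.48 in AF cKO, and of the neighbours only NP CTR and AF cKO did not overlap. The change was 0.06 (SE 0.27, adjusted p = 1) in NP. In AF it was -0.59 (SE 0.27), with an unadjusted p of 0.0431 in the limma fit and an adjusted p of 0.46. Over the alternatives it ran from -0.80 without AF CTR 1 and AF cKO 3 (adjusted p = 0.451) to -0.36 without cKO 2 (adjusted p = 0.825). At 7.89, cKO 2 lay well under the other 3 AF knockouts. Without AF cKO 2 and AF cKO 4 the change was -0.41 (adjusted p = 0.831). The NP minus AF differences of -0.15 in controls (adjusted p = 0.747) and 0.50 in knockouts (adjusted p = 0.181) did not pass.

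The ferritin chains Ftl1 and Fth1 form the iron store. Ftl1 read 15.13, 14.91, 15.67 and 15.75 in NP CTR, 15.12, 15.54, 15.49 and 14.99 in NP cKO, 14.96, 15.20, 14.25 and 14.17 in AF CTR, and 15.17, 15.24, 15.58 and 15.29 in AF cKO. AF controls fell into a lower pair, CTR 3 and CTR 4, and a higher pair, CTR 1 and CTR 2, of which CTR 2 overlapped the knockouts. Means were 15.37 ± 0.41 in NP CTR, 15.32 ± 0.18 in AF cKO, 15.29 ± 0.27 in NP cKO and 14.65 ± 0.51 in AF CTR, and all neighbours overlapped. The change in AF was 0.67 (SE 0.25, 95% interval 0.14 to 1.20), with an unadjusted p of 0.0161 in the limma fit and an adjusted p of 0.37, and the change in NP was -0.08 (SE 0.25, adjusted p = 1). The difference of these changes, -0.75 (SE 0.36), had an unadjusted p of 0.0506 in the limma fit and an adjusted p of 0.732. In controls Ftl1 was 0.72 higher in NP than in AF (SE 0.25, adjusted p = 0.0527), just short of passing. It passed in 6 of 18 alternatives, among them median centring (0.85, adjusted p = 0.0293), leaving out NP CTR 2, AF CTR 1 or AF CTR 2 (0.82 to 0.90, adjusted p from 0.022 to 0.0474) and the animal as a random block (adjusted p = 0.0492), but not with the animal as a fixed block (adjusted p = 0.105). In knockouts the difference was -0.03 (adjusted p = 0.94).

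Fth1 was at the ceiling of the arrays. Its 16 values lay between 19.80 and 19.93, the highest value in the whole table being 19.93. In 8 arrays no probe set lay above it, though others may have tied with it, and in the other 8 between 6 and 17 probe sets lay above it. A saturated probe set carries only a lower bound of its level, so no fold is given, and the small differences of 0.02 in NP and 0.04 in AF say nothing about equal amounts of Fth1 RNA. The related ferritin genes Fthl17a, Fthl17d, Fthl17e and Fthl17f had means below background in all 4 groups, and Fthl17b lay at 6.61 to 6.93. Ferritin genes have near-identical copies elsewhere in the genome, and how far the probes tell them apart was not tested.

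**Figure D4:**
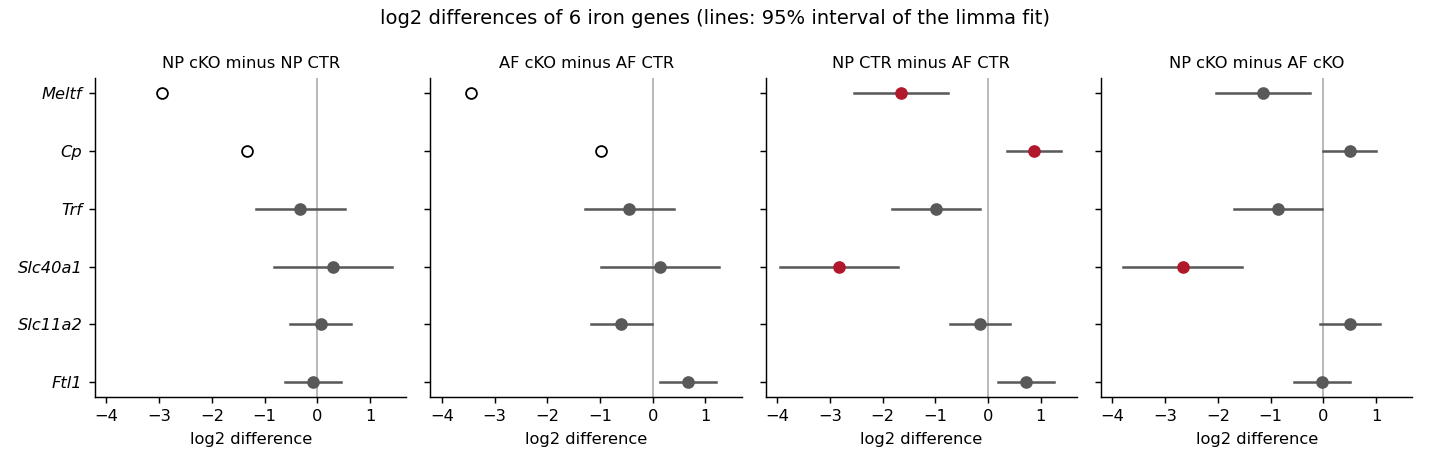
The log2 difference (horizontal axis) of Meltf, Cp, Trf, Slc40a1, Slc11a2 and Ftl1 is plotted for 4 comparisons, with lines for the 95% interval of the limma fit, red points for an adjusted p under 0.05, grey points for the rest, and open circles without a line where the gene was picked for that difference. Red points are Meltf, Cp and Slc40a1 in controls and Slc40a1 in knockouts, all in NP against AF.

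Counted over the members, 0 of the 5 genes not picked for their fall passed for cKO against CTR in either compartment, and 0 of the 5 had groups that did not overlap. Of all probe sets, 0.122% passed in NP and 0.0991% in AF, and 2.93% and 4.33% did not overlap. At such shares 0 of 5 says little about these genes. For NP against AF, 3 of 7 members passed in controls, Meltf and Slc40a1 lower and Cp higher in NP, where 20.1% of all probe sets passed (9.96% higher and 10.1% lower). The same 3 members had groups that did not overlap, against 22.6% of all probe sets (11.3% higher and 11.2% lower). In knockouts 1 of 7 passed, Slc40a1, against 25.9% of all probe sets (13.3% higher and 12.6% lower), and 2 of 7 did not overlap, Slc40a1 and Trf, against 26.8% (14.3% higher and 12.5% lower). Median centring of the arrays moved the median NP minus AF difference of all probe sets in controls from 0.04 to 0.16 and the split of calls from 2211 higher and 2251 lower to 3293 higher and 1769 lower. Under it Meltf differed by -1.52, Cp by 0.99 and Slc40a1 by -2.70, and all 3 still passed.

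Genes with the profile most like that of Meltf were sought over 18541 named genes, by the mean absolute difference of log2 values over the 16 arrays after centring each gene on its own mean. The nearest were Kcnip3 (0.80), Tubb2b (0.92), Slc26a2 (0.96), Fgfr3 (0.98) and Nid2 (1.02), against a median of 1.69 over all genes searched. Kcnip3 encodes a calcium-binding protein, Tubb2b a tubulin, Slc26a2 the sulfate transporter used to make cartilage matrix, Fgfr3 a growth factor receptor of cartilage, and Nid2 a basement membrane protein. Fgfr3, like Meltf, was highest in AF CTR (13.49) and lowest in NP cKO (8.21), with AF cKO (10.99) and NP CTR (10.13) between them. Kcnip3 had control means of 9.95 in NP and 9.71 in AF, and knockout means of 6.50 in NP, which is below background, and 6.83 in AF.

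The genes nearest to Cp were Rhoj (0.23), Sh3tc2 (0.23, with 3 of 4 group means below background), Cab39l (0.26), Tom1l2 (0.27) and Ss18l2 (0.28), against a median of 0.68 over all genes. Rhoj encodes a small GTPase and Cab39l a scaffold of the kinase LKB1. The log2 changes of Cab39l were -1.43 in NP and -0.97 in AF, near the -1.34 and -0.97 of Cp, while those of Rhoj were -1.42 and -0.41. These likenesses are descriptions over arrays of 4 groups in which a large gap between groups sets most of the measure.

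The other genes of iron, haem and copper handling were taken as 8 lists of 87 genes, of which 81 were measured and 10 had all 4 group means below background. In NP, 38 of the 81 were higher and 43 lower in cKO, with a median change of -0.02. There 0 passed, beside 0.122% of all probe sets. In AF, 62 were higher and 19 lower, with a median of 0.24, beside 46.4% of all probe sets higher and a median of -0.03. There 1 passed, Flvcr2, beside 0.0991% of all probe sets. Flvcr2, a membrane transporter of the haem exporter family, read 8.91, 8.20, 7.31 and 8.10 in AF CTR and 6.99, 6.35, 6.69 and 6.25 in AF cKO. Its knockout mean was below background, so the fall is at least 2.91-fold (log2 difference -1.56, SE 0.27, adjusted p = 0.0237). The call was lost without AF CTR 2 (adjusted p = 0.0601), AF CTR 4 (0.0683) or AF cKO 2 (0.116), without AF cKO 2 and AF cKO 4 together (0.143), with array weights (0.0571) and in a fit of the 8 AF arrays alone (0.31).

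By role, haem synthesis had 8 of 8 measured genes higher in AF cKO with a median of 0.57, and 0 passed. Its members with the smallest p were Alas2, the erythroid first enzyme (1.46, SE 0.47, adjusted p = 0.278), Fech, which inserts the iron (0.84, SE 0.28, adjusted p = 0.314), Cpox (0.78, adjusted p = 0.353) and Alas1 (0.71, adjusted p = 0.396). Iron uptake had 13 of 16 higher with a median of 0.42 and 0 passed, and Lcn2 (3.48, SE 1.16, adjusted p = 0.3) and Ltf (3.03, SE 0.77, adjusted p = 0.171), 2 iron-binding proteins of neutrophil granules, were its largest differences, with the control mean of Ltf below background. The transferrin receptor Tfrc differed by 0.86 (SE 0.25, adjusted p = 0.236) and its groups did not overlap. Without AF cKO 2 and AF cKO 4, iron uptake had 8 of 16 higher with a median of 0.12, and haem synthesis 8 of 8 with a median of 0.87. Without AF CTR 1 and AF cKO 3, iron uptake had 14 of 16 higher and haem synthesis 7 of 8, each with a median of 0.45. Ferroptosis defence had 8 of 8 higher with a median of 0.14, and mitochondrial iron and iron-sulfur clusters 9 of 10 with a median of 0.30. Haem breakdown and transport had 9 of 13 with a median of 0.31, and copper supply 5 of 9 with a median of 0.24. Without AF cKO 2 and AF cKO 4 these were, in that order, 6 of 8, 7 of 10, 9 of 13 and 6 of 9. Without AF CTR 1 and AF cKO 3 they were 6 of 8, 9 of 10, 9 of 13 and 7 of 9. Iron sensing and ferritin turnover had 5 of 7 higher with a median of 0.11, where Pcbp1, which delivers iron to ferritin, differed by 0.71 (adjusted p = 0.316) and Ncoa4, which sends ferritin for breakdown, by 0.79 (adjusted p = 0.469). The list of export, oxidases and the hepcidin axis was even, with 5 of 10 higher and a median of -0.05. It had 4 of 10 higher without either pair of AF arrays. Iron sensing had 5 of 7 without AF cKO 2 and AF cKO 4, and 4 of 7 without AF CTR 1 and AF cKO 3. Among all 8 lists these shares of higher genes had no test, and Flvcr2 was the 1 gene called.

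Markers of blood-forming cells moved in the same arrays. The neutrophil list averaged 10.3 to 14.2 in AF cKO and 6.59 to 12.4 in AF CTR, with Camp and Ltf below background in AF CTR. The erythroid list of 5 genes averaged 7.42 to 9.36 in AF cKO and 6.95 to 7.96 in AF CTR, with Klf1 below background in all 4 groups. With the genes that serve as markers taken out, 58 of 76 iron and copper genes were higher in AF cKO. Without AF CTR 1 and AF cKO 3 the count over all lists was 60 higher and 21 lower, and Ltf and Hp passed as higher beside Flvcr2 as lower. Calls over all probe sets rose in that fit too, from 22 to 112. Without AF cKO 2 and AF cKO 4 the count over all lists was 53 and 28, and 0 passed, beside 34 of all probe sets. These arrays were set aside for their osteoclast or muscle markers. Without AF CTR 1 and AF cKO 3 the neutrophil list still averaged 10.3 to 12.85 in AF cKO and 6.59 to 8.40 in AF CTR. The counts without them therefore cannot show the part of blood-forming cells, which was not tested.

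**Figure D5:**
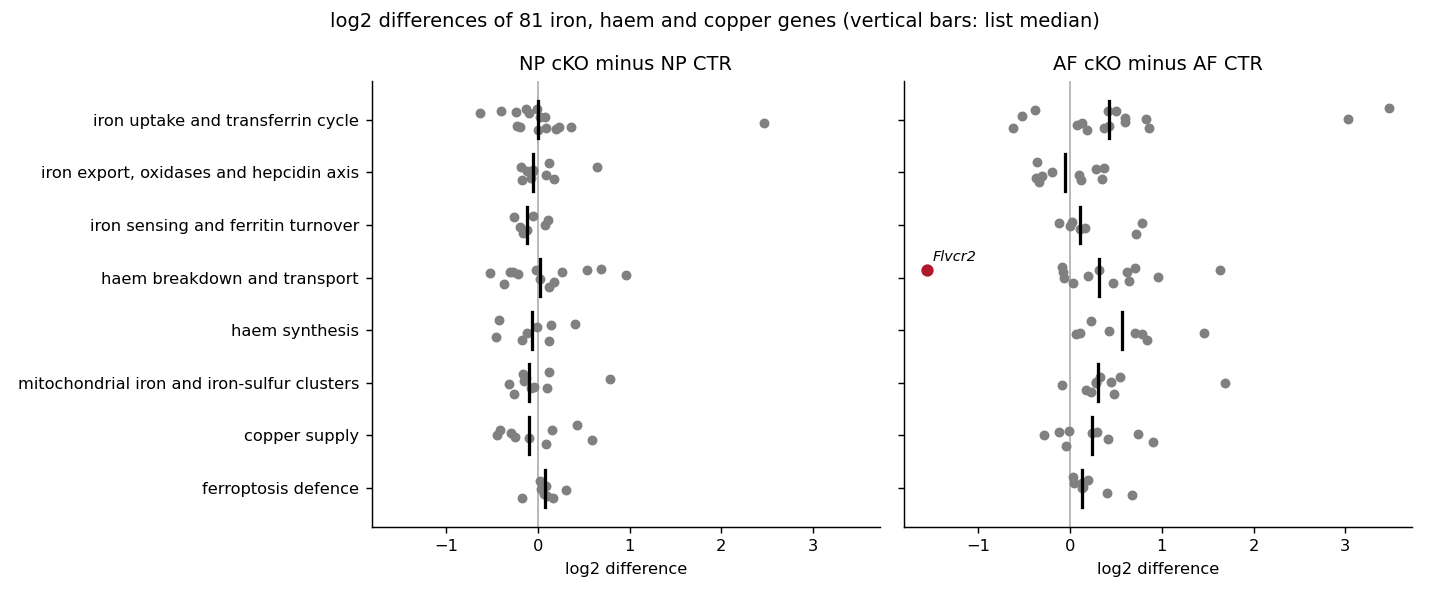
Each point is the log2 difference (horizontal axis) between cKO and CTR of 1 of 81 iron, haem and copper genes, grouped by list on the vertical axis, for NP on the left and AF on the right, with vertical bars for list medians and red for an adjusted p under 0.05. Medians in NP lie near 0, those in AF lie between -0.05 and 0.57, and Flvcr2 in AF is the red point.

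NP and AF differed in many of these genes. In controls 27 of 81 passed, 8 higher and 19 lower in NP, which is 33.3% beside the 20.1% of all probe sets, and in knockouts 36 passed, 6 higher and 30 lower, or 44.4% beside 25.9%. Median centring gave 14 higher and 16 lower in controls. Over all probe sets it gave 5062 calls in controls, where the main fit gave 4462. Without AF CTR 1 and AF cKO 3, 8 were higher and 14 lower in controls and 2 higher and 24 lower in knockouts. Calls over all probe sets also fell in that fit, from 4462 to 3581 in controls and from 5754 to 4205 in knockouts. Without AF cKO 2 and AF cKO 4 the list counts were 8 and 19 in controls and 4 and 22 in knockouts. Over all probe sets 4380 passed there in controls and 3800 in knockouts. With all arrays, 21 of the 81 genes passed in both genotypes, all 21 in the same direction, which is 25.9% beside 13.2% of all probe sets. Of the 21, 13 passed in both without AF CTR 1 and AF cKO 3, and 16 without AF cKO 2 and AF cKO 4. Those of smallest adjusted p in controls with both levels above background were lower in NP: Neo1, a haemojuvelin receptor (-3.99 in controls, adjusted p = 1.19e-06), Bmp6, a ligand that induces hepcidin (-2.67, adjusted p = 4.91e-05), and Slc22a17, the lipocalin receptor (-2.58, adjusted p = 1.99e-06). Hp, which binds free haemoglobin, was at least 11.3-fold and Cybrd1, a ferric reductase, at least 5.35-fold lower in NP in controls, with NP means below background. Lower in NP in both genotypes were also Steap1, Steap2, Slc39a14, Lcn2, Hamp2, Alas2, Alad, Abcb10, Glrx5, Ccs and Slc7a11, of which Steap1, Alas2, Abcb10, Glrx5 and Slc7a11 had NP means below background. The calls of Lcn2, Alad, Abcb10 and Glrx5 held in both genotypes under every alternative run for them, and those of the other 7 did not. In controls Slc39a14 lost its call in 12 of 18 alternatives (adjusted p up to 0.113), Steap2 in 7 (up to 0.113), Hamp2 in 7 (up to 0.0904), Ccs in 7 (up to 0.0981), Slc7a11 in 5 (up to 0.109) and Alas2 in 4 (up to 0.0815). In knockouts Hamp2 lost it in 13 of 19 (up to 0.205), Slc7a11 in 2 (up to 0.0633), and Steap1 (0.0666) and Ccs (0.0762) without AF cKO 2 and AF cKO 4. Hamp2 is a close copy of Hamp, the hepcidin gene, so their probes may not be separate. Hpx, the haem carrier of plasma, passed as higher in both, with AF means below background. Its call was lost in 8 of 17 alternatives in controls (adjusted p up to 0.125) and in 8 of 18 in knockouts (up to 0.158). Tmprss6, Hscb, Atp7b and Chac1 also passed in both, with NP and AF means below background, so no fold is given. Of these 4, Chac1 held both calls under every alternative run for it, and the other 3 did not. The neutrophil list averaged 10.3 to 14.2 in AF cKO and 5.72 to 8.51 in NP cKO. In controls it averaged 6.59 to 12.4 in AF and 6.54 to 8.25 in NP. The erythroid list averaged up to 9.36 in AF cKO and 7.31 in NP cKO. Of 76 genes that are no markers, 7 passed as higher and 17 lower in NP in controls, and 6 and 27 in knockouts. The part of blood-forming cells in these differences was not tested.

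Calls in 1 genotype alone were Tfrc, Steap4, Slc39a8, Flvcr2, Ppox and Gpx4 in controls. In knockouts they were Ltf, Exoc6, Hephl1, Hamp, Pcbp1, Blvra, Abcg2, Cpox, Fech, Slc25a37, Iscu, Atp7a, Slc31a1, Atox1 and Mt2. Without AF cKO 2 and AF cKO 4, 22 of the 36 calls in knockouts held, and Exoc6, Hephl1, Hamp, Pcbp1, Abcg2, Iscu, Slc31a1, Atox1 and Mt2 were among those lost. Without AF CTR 1 and AF cKO 3, 25 of the 36 held, and Exoc6, Hamp, Abcg2, Cpox, Iscu, Atp7a and Slc31a1 were among those lost. The zinc and iron importer Slc39a8 was 2.48 higher in NP in controls (adjusted p = 0.00142) and 1.25 higher in knockouts (adjusted p = 0.0674). Tfrc was 1.17 higher in NP in controls (adjusted p = 0.00275) and the peroxidase Gpx4, which guards membranes against iron-driven damage, 1.02 higher (adjusted p = 0.00413). A call in 1 genotype and not in the other does not show that the genotypes differ. The test of that difference passed for 0 of the 81 genes and for 0 of all 22206 probe sets. At that share, 0 of 81 says little about these genes.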

How the data were processed

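RNA of 16 disc tissue samples was hybridised to 1-colour Affymetrix arrays. The deposited values are log2 signals per probe set, made by the authors with sst-RMA in Transcriptome Analysis Console, per the labels and the submitters' processing notes, with no version given in the sources used here. The table has 28846 probe sets. Without the 6640 controls, 22206 entered the tests, and 19572 of them had 1 symbol in the platform annotation, for 19505 genes, none had several and 2634 had none. Each member had 1 probe set, so the rule of the highest mean over 16 arrays left no choice.

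The 4 groups were fitted as means in 1 model with limma 3.58.1 in R 4.3.3, with Benjamini-Hochberg adjustment over all 22206 probe sets and an adjusted p under 0.05 as the threshold. The fit was tested on simulated data. Every adjusted p is from this fit unless an alternative is named. Detection calls were not used, and background was set at the highest median of the negative control probe sets, 6.59. Precision is limited by 4 arrays a group. Replicate numbers pair NP with AF because both come from 1 animal, as the codes in the titles show; the deviations of the 8 pairs from their group means correlated at -0.29 to 0.35, with 3 of 8 over 0.1.

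Named genes are the 7 members, Sox9, the genes of 8 iron and copper lists that passed in any of 5 comparisons with up to 4 genes a list of smallest p for cKO against CTR, and the 5 genes nearest in profile to Meltf and to Cp. Members, gene lists, marker lists and rules were chosen with earlier results of these data known. Sequences and coordinates are RefSeq's for GRCm38.p6. Alternatives changed the scaling (centring arrays on their medians, or quantile normalizing once more), the probe sets (dim ones dropped, or 1 for each gene), the model (a trend with intensity, weights for arrays, blocks, or 1 tissue at a time), the call (the labels' thresholds) and the arrays left out. List counts without certain arrays or under other scaling were added after seeing the data.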

Additional observations from a re-analysis of the deposited data

Results flagged for a closer look

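Of 76 groups of 4 values checked for a single array far from the other 3, 4 had one, where chance gives about 1 in 20. Cp in NP CTR replicate 3 was 17.87, and the other 3 were 17.11 to 17.23; the control difference between NP and AF did not pass without it. Slc11a2 in AF cKO replicate 2 was 7.89 against 8.78 to 8.93 in the others, in an array with skeletal muscle markers. Fth1 in NP CTR replicate 1 was 19.86 against 19.91 to 19.92, all at the ceiling of the arrays. The mean of the neutrophil markers in NP cKO replicate 3 was 5.72 against 8.16 to 8.51. No cause was tested for any of these values.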

How the results depend on the processing

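The directions of Meltf and Cp for cKO against CTR were the same in all 18 alternatives in NP and all 20 in AF. Both genes were picked for falling in these same arrays, so this is a description and lends their falls no support. No called result changed sign. Of the other member results, 10 that did not pass changed sign in at least 1 alternative, among them the changes of Slc40a1 in AF (-0.25 to 0.95), of Trf in NP (-0.54 to 0.02) and AF (-0.72 to 0.01), and of Slc11a2 (-0.15 to 0.24) and Ftl1 (-0.23 to 0.05) in NP. Counts of calls moved more. For cKO against CTR in AF, 22 probe sets passed, against 37 with a second quantile normalization, 774 at the labels' thresholds, 8 in a fit of the AF arrays alone, 34 without AF cKO 2 and 4, 112 without AF CTR 1 and AF cKO 3, and 12 to 142 leaving out 1 array. The lowest came without AF cKO 1 or 2 and the highest without AF CTR 1, with 112 without AF cKO 4 and 58 without AF CTR 3. In NP 27 passed, against 262 at the labels' thresholds and 10 to 19 leaving out 1 array (17 or fewer without any array but NP cKO 3 or 4). For the difference of the changes 0 passed, against 1 with the second quantile normalization, 977 at the labels' thresholds, 1 without either pair of AF arrays and 0 to 3 leaving out 1 array. For NP against AF, the filter on dim probe sets, which tests fewer, gave 2764 for 4462 in controls and 3119 for 5754 in knockouts. Leaving out 1 array gave 3552 to 4160 and 4074 to 5621, and 3800 passed in knockouts without AF cKO 2 and 4. The cause was not tested for the other shifts.

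With the animal as a random replicate block the counts were 27 in NP, 22 in AF, 0 for the difference, 4651 for NP against AF in controls and 6028 in knockouts, and with a fixed block 0, 4175 and 5580 for the last 3. Control and knockout arrays of 1 number share only a number (correlations -0.27 to 0.21, 4 of 8 over 0.1), and blocking on it gave 18 in NP and 25 in AF. Beyond Meltf in knockouts and Ftl1 in controls, no block changed the call of a member.

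With 4 arrays a group, 95% intervals were wide (-0.98 to 1.26 for Slc40a1 in AF), so small changes of Trf, Slc40a1, Slc11a2 and Ftl1 were not detectable. Fth1 is bounded by saturation, and Slc40a1 in NP by background.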
